A study of Coryphaena hippurus with 27 samples.

Results

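Mahi-mahi (Coryphaena hippurus) larvae exposed to slick oil were compared with larvae exposed to source oil 96 hours after fertilisation (hours post fertilisation, hpf), in small RNA libraries from whole animals. The 3 slick and the 3 source libraries of 96 hpf were chosen by their labels, which makes 6 of the 27 libraries of the study, and the same miRNA names were read from both oil tables. Slick larvae were held in seawater with a high-energy water-accommodated fraction (HEWAF, oil dispersed in water by vigorous mixing) of weathered oil from the Deepwater Horizon spill, collected at the sea surface. Source larvae were held in the same way with a HEWAF of oil from the well, and 3 control libraries of 96 hpf came from larvae without oil. Each library came from a pool of animals, and each of the 3 groups holds 3 libraries, numbered 7, 8 and 9 in each. The labels give 1 g/l for both oils, against 0 g/l for controls. The sources used here do not give the dilution in the beakers or its hydrocarbon content, so a difference between the oils and a difference in dose cannot be told apart. The beakers of an oil were filled from bulk dilutions, so p-values measure only the spread between these pools, which may be smaller than the spread between preparations.

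MicroRNAs (miRNAs) are short RNAs that guide Argonaute proteins to messenger RNAs and lower their translation and stability. A precursor hairpin yields a strand from its 5′ arm and one from its 3′ arm, named 5p and 3p, of which one is usually kept and the other mostly discarded. Many miRNAs are made mainly in one cell type, such as miR-144 and miR-451 in red blood cells, miR-122 in hepatocytes and miR-204 in the pigment epithelium and lens of the eye. Crude oil is known to disturb the heart, eyes and blood flow of fish larvae, and weathering at the sea surface removes the lightest hydrocarbons from oil. In RNA from whole larvae, fewer cells of a type and less RNA per cell cannot be told apart.

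The 6 oil libraries held 86977 to 93055 counts, with a mean of 91344 ± 1791 under slick oil and 88464 ± 1597 under source oil (SD, n = 3 each). Between 971 and 1005 names were detected in them. Both the totals and the detected names overlapped between the oils (exact permutation test, two-sided, p = 0.2 for each, where 3 against 3 cannot give less than 0.1). Of 1087 names in both tables, 1049 had equal control counts, and 669 of these passed the filter on low counts. Several names can stand for 1 mature sequence, so names were chained into sets wherever 2 differed by at most 5% of their summed counts over the 9 libraries. The 669 names formed 367 such sets of near-identical counts. The chaining also joined different miRNAs, such as miR-1 with miR-21 and miR-375 with miR-199-5p, so a set need not be 1 mature sequence. Values below are normalised counts, scaled to 90000 counts per library. In the oil libraries the most abundant name held 0.758% to 0.813% of the counts. What 1 count stands for, a read or a distinct sequence, is not given in the labels or headers, so levels and fold changes are those of the deposited counts. In the median name the libraries varied less than counting error, with a quasi-dispersion of 0.796 where counting error alone gives 1. Between 2 libraries of a group, the chi-square per degree of freedom was 1.19 for slick 7 and 9, above the 1 of counting error. It was 0.499 to 0.978 for the other pairs. When the spread was set no smaller than counting error, 18 names were called between the oils, against 29 as fitted. A principal component analysis of the 6 oil libraries put 45.8% of the variance on an axis that separated the oils, with scores of -1.01, -2.77 and -5.52 for slick 7, 8 and 9 and of 4.83, 2.08 and 2.39 for source 7, 8 and 9. On that axis slick 7 lay nearest to the source libraries and slick 9 farthest from them.

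Slick and source larvae differed in 29 of 669 names (4.33%) at an adjusted p under 0.05 in edgeR's quasi-likelihood test. Of these, 13 (1.94%) were higher and 16 (2.39%) lower under slick oil. They came from 16 miRNA numbers and 19 sets of near-identical counts, so they are fewer than 29 separate results. Lower were miR-144, miR-737, miR-122, miR-145, miR-135, the 5p arms of miR-214, miR-223 and miR-734, and miR-18a-5p. Higher were miR-204 and the closely related miR-211, miR-462, the 5p arms of miR-130a, miR-130b and miR-24, miR-181a-3p and miR-125a-2-3p. The slick and source libraries did not overlap for 27 of the 29 names, the exceptions being miR-734-5p and miR-18a-5p, and for 23.2% of all 669 names.

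The differences between the oils were small. The median absolute log2 difference over the 669 names was 0.128 between slick and source, 0.345 between slick and control and 0.282 between source and control. For 479 names (71.6%) the 95% interval of the difference between the oils lay within 1.5-fold either way. These intervals rest on the fitted spread, which was below counting error for 97.6% of names, so they may be too narrow. This share was not computed with the spread set no smaller than counting error. The estimate was past 1.5-fold for 20 names, of which 7 passed the test. The unadjusted p was under 0.05 for 109 names, 60 higher and 49 lower under slick oil. DESeq2 called 4 names, miR-144, miR-144-5p, miR-737 and miR-737-5p. Without slick 9 edgeR called 5 names, which were these and miR-130b-5p, and without slick 7 it called 56. It called 15 without slick 8, 15 without source 7 and 16 without source 9. With a trend over abundance removed, 15 names were higher and 10 lower under slick oil.

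**Figure D1:**
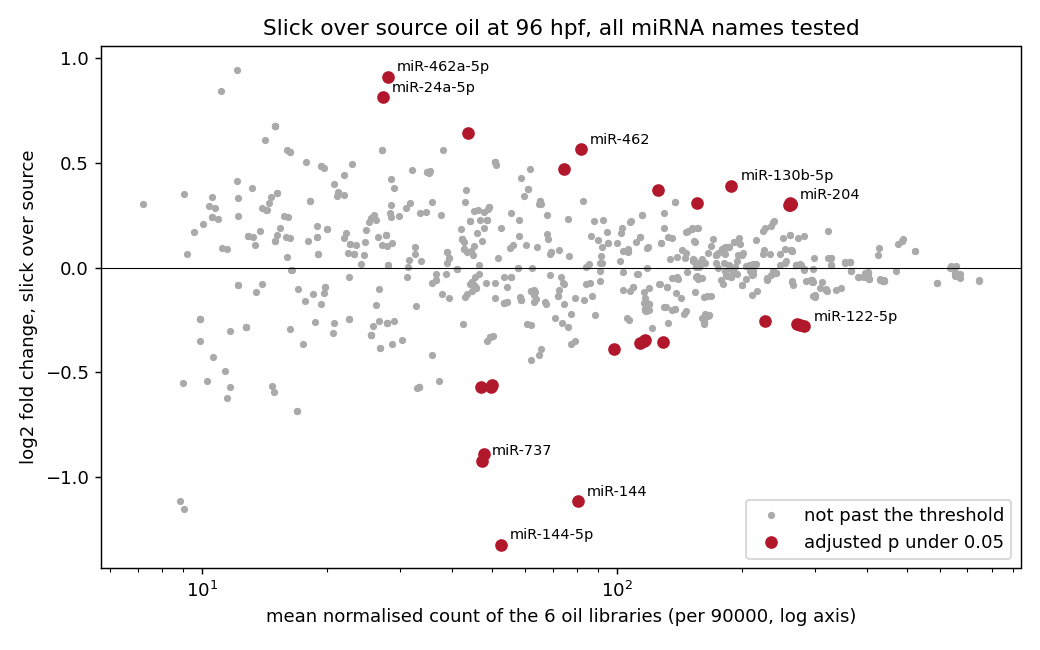
Log2 fold change of slick over source oil at 96 hpf against the mean normalised count of the 6 oil libraries (log axis), 1 point per miRNA name tested. The 29 red points passed an adjusted p of 0.05; most points lie close to 0, and miR-144-5p and miR-144 lie lowest among the called names.

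The red blood cell miRNA miR-144 gave the clearest difference between the oils. Its normalised count was 55.6, 48.8 and 47.7 in the slick libraries, against 118, 95.6 and 116 in the source libraries and 104, 128.2 and 136 in controls. All slick libraries thus lay far below all source libraries, and the source libraries overlapped the controls. The log2 fold change of slick over source was -1.11 ± 0.13 (SE, adjusted p = 1.71e-09). miR-144-5p, the strand of the 5′ arm, had 31.4, 28.6 and 29.7 in slick, against 87.3, 60.2 and 77.6 in source and 75.9, 89.2 and 98.6 in control libraries. It again separated the slick libraries from both other groups, with a log2 fold change of -1.32 ± 0.17 (adjusted p = 1.44e-08). These 2 calls and those of miR-737 and miR-737-5p held under every alternative tried that tested them.

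The other names of the red blood cell list were not called between the oils. miR-144-3p had 11.1, 8.49 and 8.47 in slick, against 17.7, 11.8 and 10.5 in source and 37.9, 20.9 and 30.7 in control libraries, with a difference between the oils of -0.49 ± 0.30 (adjusted p = 0.522). miR-451, which is cut from the same primary transcript as miR-144 and needs Argonaute rather than Dicer to mature, had 46.5, 63.6 and 68.9 in slick, against 33.1, 49.4 and 44.0 in source and 25.3, 30.7 and 23.1 in control libraries. The slick and source libraries overlapped, and the difference of 0.49 ± 0.16 did not pass the test (adjusted p = 0.0768), though it did without slick 7 (0.64, adjusted p = 0.0139). Of 7 names on the list, 2 were called lower, against 2.39% of all names, and none was called higher. The median log2 fold change of the list was 0.49, against 0.0107 over all names, with 4 of the 7 names being of miR-451. In the authors' deposited tables, miR-144 had a log2 fold change over control of -1.26 under slick oil (adjusted p = 4.66e-13) and of -0.19 under source oil (adjusted p = 0.337).

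**Figure D2:**
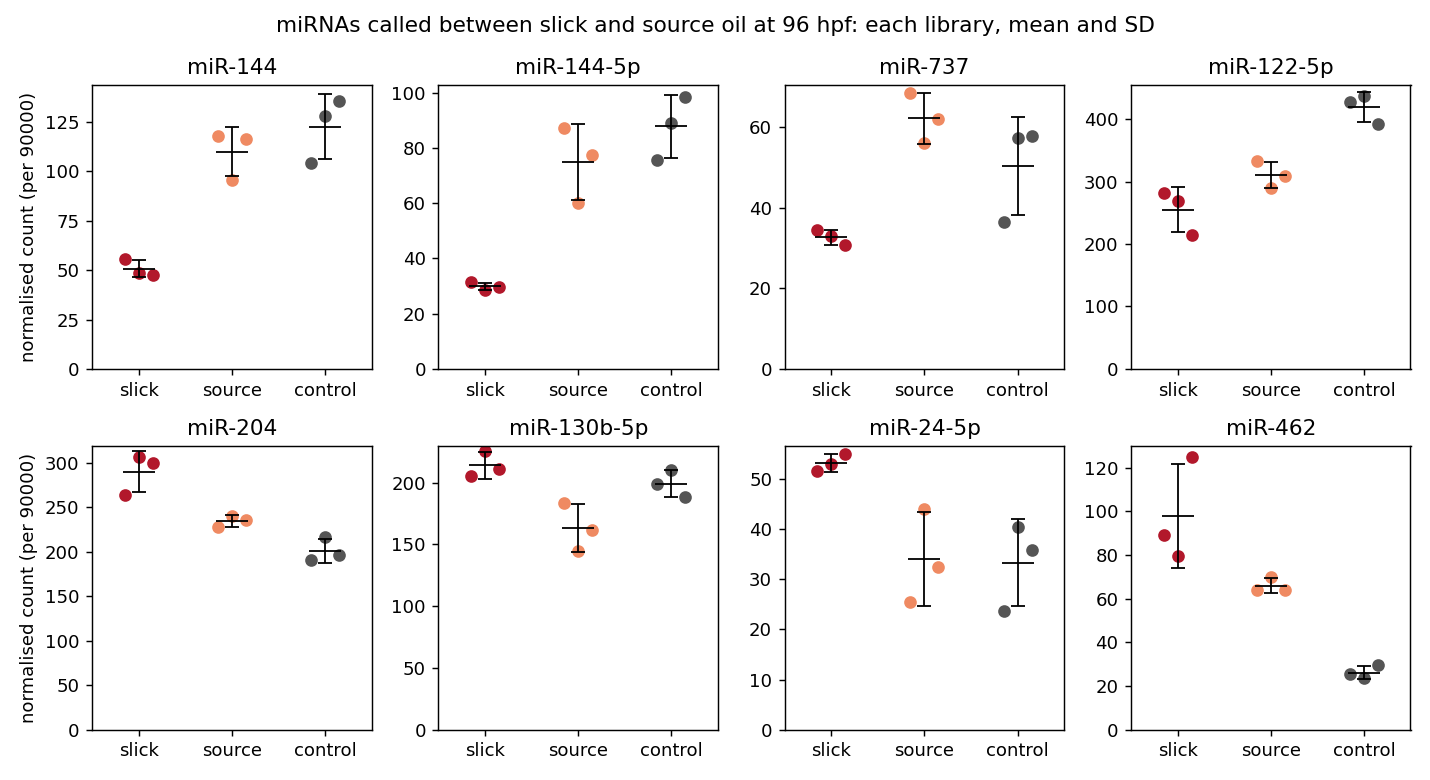
Normalised counts (per 90000) of 8 called miRNAs in each slick, source and control library of 96 hpf, with the mean and SD of 3 libraries. The slick libraries of miR-144, miR-144-5p and miR-737 lie below every source library, and those of miR-204, miR-130b-5p, miR-24-5p and miR-462 lie above every source library.

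miR-737, a miRNA described in fish, was also lower under slick oil, and here the controls lay between the oils. It had 34.4, 32.9 and 30.7 in slick, against 68.5, 55.9 and 61.9 in source and 36.3, 57.2 and 57.6 in control libraries. The log2 fold change of slick over source was -0.92 ± 0.17 (adjusted p = 0.000201). miR-737-5p gave nearly the same counts and is not separate evidence. Against the controls, miR-737 fell by 0.64 under slick oil (adjusted p = 0.00339), while source oil gave 0.28 (adjusted p = 0.179).

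The liver miRNA miR-122 was lower in both oils than in controls, and lower under slick than under source oil. miR-122-5p had 282, 268 and 215.04 in slick, against 333, 290 and 309 in source and 428, 438 and 392 in control libraries. The 3 groups did not overlap, with slick lowest and control highest. The difference between the oils was -0.28 ± 0.07 (adjusted p = 0.0128), and miR-122 and miR-122a-5p gave -0.27 from nearly the same counts. It was lost without slick 9 (-0.18, adjusted p = 0.376) and without source 7 (-0.23, adjusted p = 0.154). The intestinal and hepatic miR-192 had -0.07 ± 0.06 (adjusted p = 0.684). Of 20 names on the liver and gut list, the 3 of miR-122 were called lower, against 2.39% of all names, and none was called higher. Those 3 had near-identical counts and are 1 result, and the list median was -0.07.

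Names of white blood cells, vessels and connective tissue were lower in single cases. miR-223-5p, a strand of the myeloid miRNA miR-223, had 48.5, 41.4 and 23.3 in slick, against 64.1, 53.7 and 51.4 in source and 50.6, 48.8 and 52.5 in control libraries. Slick 9 was the lowest, and the difference of -0.57 ± 0.17 (adjusted p = 0.0436) came to -0.33 without it (adjusted p = 0.536). The call of miR-223-5p was also lost without slick 8, any source library, control 8 or control 9, at adjusted p-values of 0.0565 to 0.351. miR-142-3p, found in all blood cell lineages, had 28.3, 23.3 and 28.6 in slick, against 45.3, 39.8 and 34.6 in source and 56.9, 41.8 and 60.2 in control libraries. Those oil groups did not overlap, but -0.57 ± 0.20 did not pass the test (adjusted p = 0.0908). The opposite sign was seen for miR-155 (0.55 ± 0.26, adjusted p = 0.331), miR-146a-3p (0.47 ± 0.20, adjusted p = 0.232) and miR-223, which did not pass. On the leukocyte list 1 of 15 names was called lower, against 2.39% of all names, and none was called higher. That list had 7 estimates above 0 and a median of -0.25.

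miR-145, which marks smooth muscle, had 113, 102 and 91.1 in slick, against 147, 118 and 127 in source and 164, 146.4 and 144.7 in control libraries. The slick libraries lay below all others, and source and control libraries overlapped. The difference between the oils was -0.35 ± 0.10 (adjusted p = 0.0436). These are the counts of the 3′ strand, since miR-145-3p and miR-145a-3p had nearly the same. The 5′ strand, miR-145-5p, had 20.2, 18.03 and 25.4 in slick, against 17.7, 20.4 and 17.8 in source and 4.74, 4.18 and 3.84 in control libraries. It gave 0.19 ± 0.21 between the oils (adjusted p = 0.777) and was higher than in controls, by 2.29 under slick oil (adjusted p = 4e-07) and 2.10 under source oil (adjusted p = 1.28e-05). For miR-145 the call was lost without slick 8 (-0.33, adjusted p = 0.171), slick 9 (-0.28, adjusted p = 0.374), source 7 (-0.26, adjusted p = 0.438), source 9 (-0.37, adjusted p = 0.0904), control 8 (adjusted p = 0.0524) or control 9 (adjusted p = 0.0506). The endothelial miR-126 had -0.10 ± 0.06 (adjusted p = 0.466). Of 27 names on the vessel and smooth muscle list, the 3 of miR-145 were called lower, against 2.39% of all names, and none was called higher. Those 3 had near-identical counts and are 1 result, and the list median was -0.05. miR-214-5p, from a transcript of mesenchyme, had 125.4, 109 and 105 in slick, against 150, 135 and 149 in source and 130, 174 and 164 in control libraries, a difference of -0.35 ± 0.10 (adjusted p = 0.0308). It was lost without slick 8 (adjusted p = 0.175), slick 9 (adjusted p = 0.226), source 7 (adjusted p = 0.184) or source 9 (adjusted p = 0.107). miR-214-5p was the 1 name called lower among 20 on the mesenchyme list, against 2.39% of all names, and none was called higher.

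The remaining lower names were close to the threshold. miR-135-5p had 42.5, 41.4 and 36.0 in slick, against 67.4, 48.4 and 62.9 in source and 44.2, 58.6 and 49.9 in control libraries, a difference of -0.57 ± 0.16 (adjusted p = 0.0308), and miR-135 had nearly the same counts. These names hold a small part of the miR-135 counts. Summed over all its 5p names, miR-135 had 379, 381 and 362 in slick, against 471, 423 and 452 in source libraries. That sum gave a smaller difference of -0.26 ± 0.06 (adjusted p = 0.0277), and the sum of names without an arm gave -0.24 ± 0.06 (adjusted p = 0.035). Names of near-identical counts can enter a sum repeatedly, so its error may be too small. miR-734-5p averaged 84.9 ± 20.6 in slick, 112 ± 11.5 in source and 154.7 ± 9.46 in control libraries (SD, n = 3 each), a difference of -0.39 ± 0.12 (adjusted p = 0.0425). miR-18a-5p, of the miR-17 family clusters of proliferating cells, averaged 207 ± 31.9 in slick, 248 ± 16.2 in source and 281 ± 15.6 in control libraries, a difference of -0.26 ± 0.08 (adjusted p = 0.0425). miR-18a-5p was the 1 name called lower among 49 of the miR-17 family clusters, against 2.39% of all names, and none was called higher. On that list 24 estimates lay above 0. Slick libraries lay above all source libraries for 11 of its names and below them for 3, against 75 and 80 of all 669 names. Leaving out slick 9 gave -0.51, -0.25 and -0.15 for miR-135-5p, miR-734-5p and miR-18a-5p (adjusted p = 0.225, 0.446 and 0.546). The calls were also lost without slick 8 or source 7 for all 3 of them, without source 9 for miR-135-5p and miR-734-5p, without source 8 or control 8 for miR-734-5p and miR-18a-5p, and without control 9 for miR-734-5p, at adjusted p-values of 0.0542 to 0.415.

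Among the higher names, miR-204 was raised over both other groups. It had 264, 307 and 300.0 in slick, against 228, 241 and 236 in source and 191, 216.1 and 196 in control libraries. Every slick library lay above every source library, and every source library above every control library, though by little between the last pair of groups. The log2 fold change of slick over source was 0.30 ± 0.07 (adjusted p = 0.00413). miR-204a, miR-204a-5p, miR-204b and miR-211 had near-identical counts, so these 5 calls are one result, and the bare name miR-211 is not separate evidence. The name miR-211-5p had its own counts, with 17.2, 17.0 and 13.8 in slick, against 6.63, 8.60 and 9.44 in source and 6.32, 2.79 and 1.28 in control libraries. Its oil groups did not overlap, but 0.94 ± 0.26 did not pass the test (adjusted p = 0.0938). The miR-204 call was lost without slick 9 (0.27, adjusted p = 0.0701), and that of miR-211 also without source 7 (0.27, adjusted p = 0.0545). Of 18 names on the list of eye and sensory organs, the 5 of the miR-204 result were called higher, against 1.94% of all names. None was called lower there, and the list median was 0.13. miR-184, a miRNA of lens and cornea, had 0.15 ± 0.07 (adjusted p = 0.242).

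miR-462, which in zebrafish is transcribed together with miR-731 and rises under hypoxia, was higher in both oils than in controls and higher under slick oil than under source oil. It had 89.0, 79.5 and 125.0 in slick, against 64.1, 69.9 and 64.0 in source and 25.3, 23.7 and 29.5 in control libraries. The 3 groups did not overlap, and slick 9 was the highest. The difference between the oils was 0.57 ± 0.13 (adjusted p = 0.00413) and came to 0.35 without slick 9 (adjusted p = 0.376). miR-462a-5p had 32.4, 28.6 and 48.7 in slick, against 21.0, 18.3 and 18.9 in source and 11.1, 11.2 and 11.5 in control libraries. Its difference was 0.91 ± 0.21 (adjusted p = 0.00557), and 0.65 without slick 9 (adjusted p = 0.315). The other names of the hypoxia-linked list were not called, with -0.04 ± 0.20 for miR-731 (adjusted p = 0.929) and -0.28 ± 0.12 for miR-210 (adjusted p = 0.264). miR-210, the miRNA most widely induced by hypoxia, had 71.8, 74.2 and 60.4 in slick, against 81.7, 82.8 and 87.0 in source and 55.3, 55.8 and 55.1 in control libraries. Of 7 names on that list, the 2 of miR-462 were called higher, against 1.94% of all names, and none was called lower.

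For 4 of the higher names the control mean lay between those of the oils, with the source mean lowest. miR-130b-5p had 205.3, 226 and 210.8 in slick, against 183.4, 145.1 and 161 in source and 199.1, 210.5 and 188 in control libraries. The slick libraries overlapped the controls and all source libraries lay below both. The difference between the oils was 0.39 ± 0.08 (adjusted p = 0.00142), and its call held without any one library. miR-130a-5p had 168, 182.4 and 166 in slick, against 154.7, 127 and 136 in source and 172, 178 and 159 in control libraries, a difference of 0.31 ± 0.09 (adjusted p = 0.0425). That call was lost without slick 8, slick 9, source 8 or source 9 (0.28, 0.33, 0.25 and 0.30, adjusted p = 0.171, 0.128, 0.196 and 0.110). On the list of miR-130, miR-301 and miR-454, these 2 of 26 names were called higher, against 1.94% of all names. None was called lower there, and the list median was 0.14. The opposite strands miR-130a-3p and miR-130b-3p gave 0.23 and 0.50 and were not called (adjusted p = 0.547 and 0.35). Source over control was -0.29 for miR-130b-5p (adjusted p = 0.00945) and -0.28 for miR-130a-5p (adjusted p = 0.0187). The 2 other higher names with controls between the oils were miR-181a-3p and miR-24a-5p. Their source and control means were close, with source over control at -0.03 and -0.07 (adjusted p = 0.844 and 0.864).

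miR-181a-3p, the other strand of a miRNA of lymphocytes and neurons, had 139, 146.4 and 140.9 in slick, against 98.3, 121 and 109 in source and 98.0, 114 and 121.7 in control libraries. The difference between the oils was 0.37 ± 0.10 (adjusted p = 0.0245). miR-24-5p had 51.6, 53.03 and 55.1 in slick, against 25.4, 44.1 and 32.5 in source and 23.7, 40.4 and 35.9 in control libraries, a difference of 0.64 ± 0.18 (adjusted p = 0.0245). miR-24a-5p averaged 34.8 ± 3.80 in slick, 19.7 ± 8.10 in source and 20.1 ± 9.26 in control libraries, a difference of 0.81 ± 0.23 (adjusted p = 0.0245). miR-125a-2-3p had 77.9, 91.2 and 91.1 in slick, against 69.6, 59.1 and 58.7 in source and 66.4, 55.8 and 55.1 in control libraries, a difference of 0.47 ± 0.13 (adjusted p = 0.029). In all 4, every slick library lay above every source library and the source libraries overlapped the controls. These were the names called higher among 15 of miR-181, 24 of the miR-23, miR-24 and miR-27 clusters and 21 of miR-99, miR-100 and miR-125. None was called lower on those lists, and 1.94% of all names were called higher. Estimates above 0 numbered 6, 16 and 17 on the lists in that order. In the miR-23, miR-24 and miR-27 clusters, slick libraries lay below all source libraries for 5 names and above them for 2. Over all 669 names these numbers were 80 and 75. The 24 names of that list form 17 sets of near-identical counts, so these need not be separate results. The miR-181a-3p, miR-24-5p and miR-24a-5p calls were lost without slick 8, slick 9, source 7 or source 9, at adjusted p-values of 0.0732 to 0.351. The call of miR-125a-2-3p was lost without slick 8, slick 9, source 8 or source 9, at adjusted p-values of 0.0948 to 0.214.

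Of 19 called names that state an arm, 14 had a tested name for the opposite arm of the hairpin, in 12 pairs of distinct counts. No opposite arm was called, where 4.33% of all names were, so this count says little about the arms. The estimate had the opposite sign in 9 of the 12 pairs, and the difference between arms was not tested. miR-24-5p was higher under slick oil by 0.64, and miR-24-3p gave -0.20 ± 0.10 (adjusted p = 0.34). miR-181a-5p gave -0.05 ± 0.06 (adjusted p = 0.766), against 0.37 for miR-181a-3p. miR-214-5p was lower, while miR-214-3p gave 0.25 ± 0.11 (adjusted p = 0.232). Against the controls, miR-214-3p was higher under both oils, by 2.52 under slick oil (adjusted p = 6.79e-18) and 2.27 under source oil (adjusted p = 6.16e-15). miR-122-3p was likewise higher than in controls by 2.06 under slick oil (adjusted p = 5.82e-08) and 1.95 under source oil (adjusted p = 7.31e-07), with 0.12 ± 0.20 between the oils (adjusted p = 0.849). The bare name miR-214 had nearly the counts of miR-214-3p, with 103, 135 and 137.7 in slick, against 79.5, 107 and 127 in source and 22.1, 25.1 and 17.9 in control libraries, and passed between the oils without slick 7 (0.37, adjusted p = 0.0338). The examples of opposite arms were chosen after their values were seen.

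Each oil was also set against the 3 control libraries, which both comparisons share. Slick and control larvae differed in 384 of 669 names (57.4%), and source and control larvae in 308 (46%). The control libraries were shallower than those of either oil, with 69630 ± 6080 counts (SD, n = 3), and the part of depth in these comparisons was not tested. Of the 29 names called between the oils, 24 passed against controls under slick oil, 13 under source oil, 11 under both and 3 under neither. The mean of the source libraries lay between those of slick and control for 399 of 669 names (59.6%), for 9 of the 13 higher names and for 11 of the 16 lower ones. Controls lay between the oils for 4 of the higher names, 5 of the lower names and 10.6% of all names. The lower ones were both miR-737 names, both miR-135 names and miR-223-5p. The mean of the slick libraries lay between the other groups for none of the 29 and for 29.7% of all names. The calls and these positions come from the same libraries, so the counts are a description and no test.

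**Figure D3:**
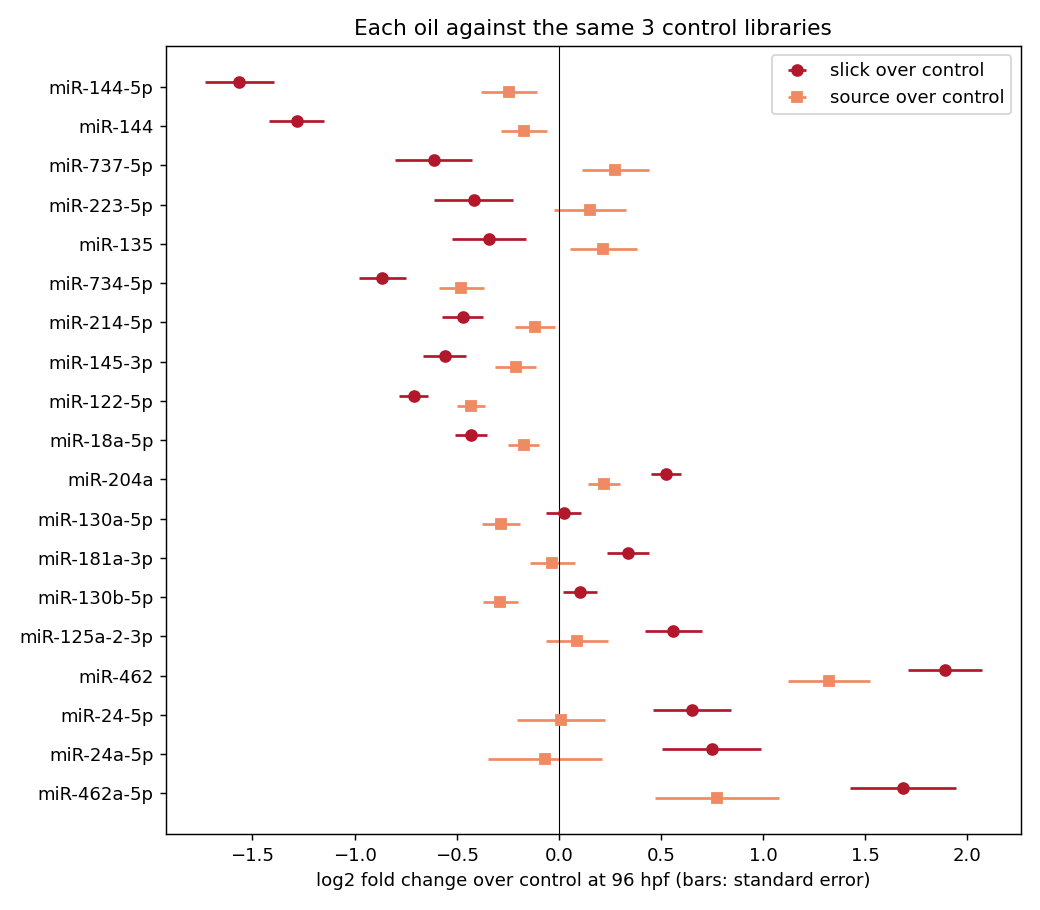
Log2 fold change over control at 96 hpf, with standard errors, under slick oil (circles) and source oil (squares), for 1 name of each of the 19 sets of called names. Both oils rest on the same 3 control libraries; miR-144 and miR-144-5p lie far below control under slick oil and near it under source oil, and miR-462 lies above control under both oils.

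Many tissue miRNAs did not differ detectably between the oils. Of 33 names on the list of skeletal and cardiac muscle none was called, where 4.33% of all names were, and the median was -0.02. In that list miR-1 had 0.02 ± 0.06 (adjusted p = 0.865), miR-133a -0.02 ± 0.07 (adjusted p = 0.892) and miR-206 -0.08 ± 0.05 (adjusted p = 0.479). The slow and cardiac muscle miRNA miR-499-5p had 157, 152 and 135 in slick, against 188, 175 and 169 in source and 235, 234 and 227 in control libraries. Its groups did not overlap, with slick lowest and control highest, but -0.26 ± 0.08 did not pass the test (adjusted p = 0.09). Summed over all its 5p names, miR-499 passed (-0.26 ± 0.07, adjusted p = 0.0322). That sum had 464, 437 and 397 in slick libraries. Names of near-identical counts enter such a sum repeatedly, so the pass is not stronger evidence than miR-499-5p alone.

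Of 76 names on the neural list none was called, where 4.33% of all names were, and the median was -0.04. The 76 names form 39 sets of near-identical counts. Of their estimates 25 lay above 0, against 350 of all 669 names. Slick libraries lay above all source libraries for 0 of its names and below them for 8, against 75 and 80 of all 669. The neuronal miR-124 had -0.05 ± 0.08 (adjusted p = 0.844) and miR-9-5p of neural progenitors -0.06 ± 0.05 (adjusted p = 0.542). miR-132b, of an activity-dependent neuronal miRNA family, averaged 66.9 ± 9.31 in slick, 52.6 ± 13.0 in source and 12.5 ± 3.66 in control libraries, with 0.34 ± 0.15 between the oils (adjusted p = 0.232). On short lists an absence of calls says little, as 4.33% of all names were called. No name was called on the lists of exocrine pancreas, endocrine cells, glia, skin and other epithelia, or the miR-15 and miR-16 group. Nor was any called on those of the let-7 family, the Hox cluster, miR-101, miR-21 or the miR-430 family. There miR-216a of acinar cells had 0.25 ± 0.19 (adjusted p = 0.561), miR-375 of hormone-producing cells 0.06 ± 0.07 (adjusted p = 0.78) and the epidermal miR-203 0.0090 ± 0.05 (adjusted p = 0.929). miR-430b of the family that clears maternal mRNA in fish embryos had 0.0045 ± 0.12 (adjusted p = 0.985), miR-21 -0.02 ± 0.06 (adjusted p = 0.89) and let-7a -0.17 ± 0.10 (adjusted p = 0.432). Larger estimates that did not pass included -1.15 for let-7h and 0.56 for miR-21b-3p (adjusted p = 0.0833 for each). Others were -0.69 for miR-338 of glia (adjusted p = 0.183) and 0.56 for miR-7a-2-3p of the endocrine list (adjusted p = 0.157).

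No name linked to p53 was called, where 4.33% of all names were, although the oils did not overlap. All 4 names of miR-34, which p53 induces, were higher in every slick than in every source library, with a median of 0.45, where 11.2% of all names were apart in that direction. They form 1 set of near-identical counts. miR-34a-5p had 37.4, 33.9 and 50.8 in slick, against 30.9, 29.0 and 29.4 in source and 9.48, 9.76 and 16.6 in control libraries, a difference of 0.45 ± 0.19 (adjusted p = 0.232). The 6 tested names on the list of miR-365 and miR-193 were all of miR-365. They were likewise apart, with a median of 0.68 and no call, and they form 2 sets. miR-15c-5p had 0.32 ± 0.12 (adjusted p = 0.158). miR-23-3p had 0.08 ± 0.09 (adjusted p = 0.73), miR-199-5p of mesenchyme -0.01 ± 0.07 (adjusted p = 0.929) and miR-223 0.36 ± 0.25 (adjusted p = 0.64). miR-7641, whose annotation as a miRNA is doubtful because its sequence resembles ribosomal RNA, varied widely, with 69.8, 95.5 and 44.5 in slick, against 121.5, 63.4 and 53.5 in source and 1.58, 9.76 and 5.12 in control libraries. The slick and source libraries of miR-7641 overlapped (-0.17 ± 0.18, adjusted p = 0.684).

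**Figure D4:**
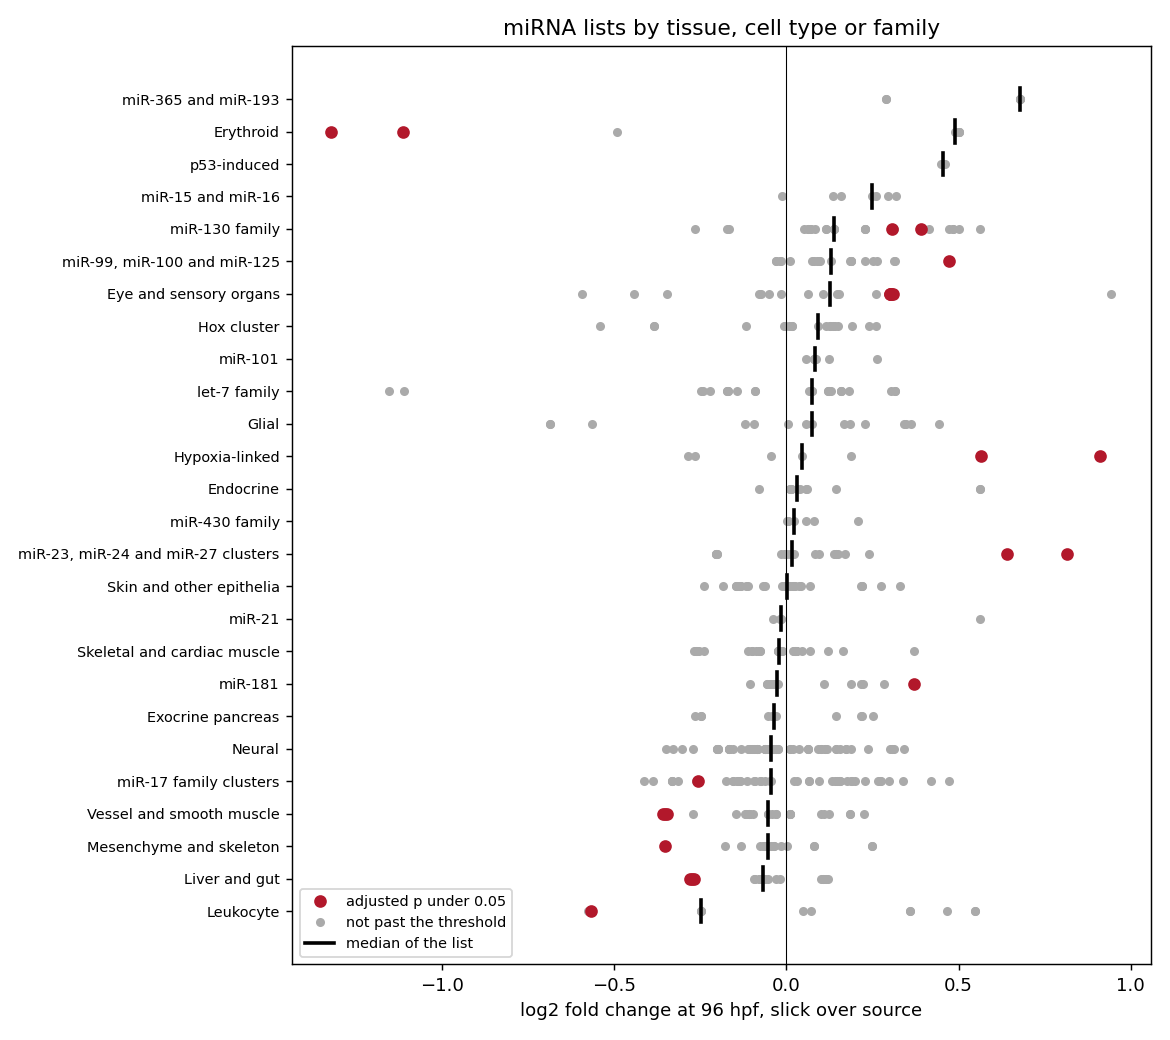
Log2 fold change of slick over source oil at 96 hpf for every tested name of 26 miRNA lists, ordered by median (black bar), with called names in red. Some called names sit at an end of their list, such as miR-144-5p in the erythroid list. Others lie further in, such as miR-18a-5p and miR-204, and 14 lists hold no called name. Over all names 4.33% were called.

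The oils were compared in the same way at the earlier stages. At 48 hpf 35 of 637 names (5.49%) were called, 31 higher and 4 lower under slick oil, and at 24 hpf 7 of 603 (1.16%), all higher. Of the 29 names called at 96 hpf, 28 were tested at 48 hpf, all 28 with the same direction and 10 with a call. At 24 hpf 25 were tested, 18 with the same direction and 6 with a call. The miR-204 and miR-211 names of near-identical counts were all called at each stage, so these are fewer separate results. Among the names called at 48 hpf, let-7b and let-7b-5p changed sign, from -0.99 (adjusted p = 0.0217) to 0.32 at 96 hpf (adjusted p = 0.2555). So did miR-182-5p, from 0.21 (adjusted p = 0.0412) to -0.015 (adjusted p = 0.9125). The others that were tested at 96 hpf kept their direction. How many of all tested names kept their direction between stages was not counted. Leaving out single libraries gave 20 to 39 calls at 48 hpf and 0 to 11 at 24 hpf, with none without slick 1, slick 2, source 1 or source 3, and 1 without any single control library.

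miR-204 was higher under slick oil at all 3 stages. At 24 hpf it had 361, 350.3 and 296 in slick, against 240, 276 and 233 in source and 181, 193 and 175 in control libraries. At 48 hpf it had 292, 265 and 296 in slick, against 199.3, 193 and 209 in source and 181.5, 188 and 186 in control libraries. The differences between the oils were 0.43 at 24 hpf (adjusted p = 0.035) and 0.50 at 48 hpf (adjusted p = 4.02e-06). The other name called at 24 hpf and 96 hpf was miR-462, with 217.7, 236 and 191.7 in slick, against 144.2, 135 and 162 in source and 104, 139 and 117 in control libraries at 24 hpf (0.54, adjusted p = 0.035). At 48 hpf miR-462 had 0.41 (adjusted p = 0.0564). None of the calls at 24 hpf held with DESeq2 or with the spread set no smaller than counting error.

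miR-144 was lower under slick oil at 48 hpf too, with 119, 124.6 and 129 in slick, against 201, 185 and 187 in source and 281, 296 and 242 in control libraries. There the source libraries also lay below all controls, and the difference between the oils was -0.62 ± 0.08 (adjusted p = 4.02e-06). At 24 hpf miR-144 had 17.4, 13.6 and 18.3 in slick, against 40.2, 19.3 and 28.7 in source and 27.0, 22.8 and 24.8 in control libraries, and -0.85 did not pass the test (adjusted p = 0.267). miR-130b-5p was higher under slick oil at 48 hpf (0.48, adjusted p = 1.28e-06), as were miR-130a-5p (0.44, adjusted p = 5.02e-05) and miR-181a-3p (0.53, adjusted p = 7.39e-05). miR-737 showed no such difference earlier, with -0.04 at 48 hpf (adjusted p = 0.969) and -0.06 at 24 hpf (adjusted p = 0.963). At 48 hpf it averaged 34.0 ± 7.02 in slick, 35.1 ± 4.68 in source and 60.7 ± 19.1 in control libraries.

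Whether the difference between the oils changed with stage was tested over all 27 libraries. No name of 655 (0%) passed edgeR's test for 96 against 48 hpf, with an unadjusted p under 0.05 for 46, and none of 655 (0%) for 96 against 24 hpf, with 27. DESeq2 called none either, with 16 and 6 names under an unadjusted 0.05. Among the 29 names, 27 were in that fit, and 5 had an unadjusted p under 0.05 against 48 hpf and 5 against 24 hpf. Against 48 hpf these included miR-144-5p, miR-144 and miR-737, whose estimates were farther from 0 at 96 hpf, but the smallest adjusted p in edgeR's test was 0.448. Against 24 hpf they were miR-223-5p, miR-145, miR-145a-3p, miR-122-5p and miR-122a-5p, with a smallest adjusted p of 0.661 in edgeR's test. The 29 names were chosen for their difference at 96 hpf, so these counts are a description. Of the names called at 48 hpf, miR-92a, of the miR-17 family clusters, had 0.40 at 48 hpf (adjusted p = 2.19e-05) and 0.20 ± 0.07 at 96 hpf (adjusted p = 0.13).

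**Figure D5:**
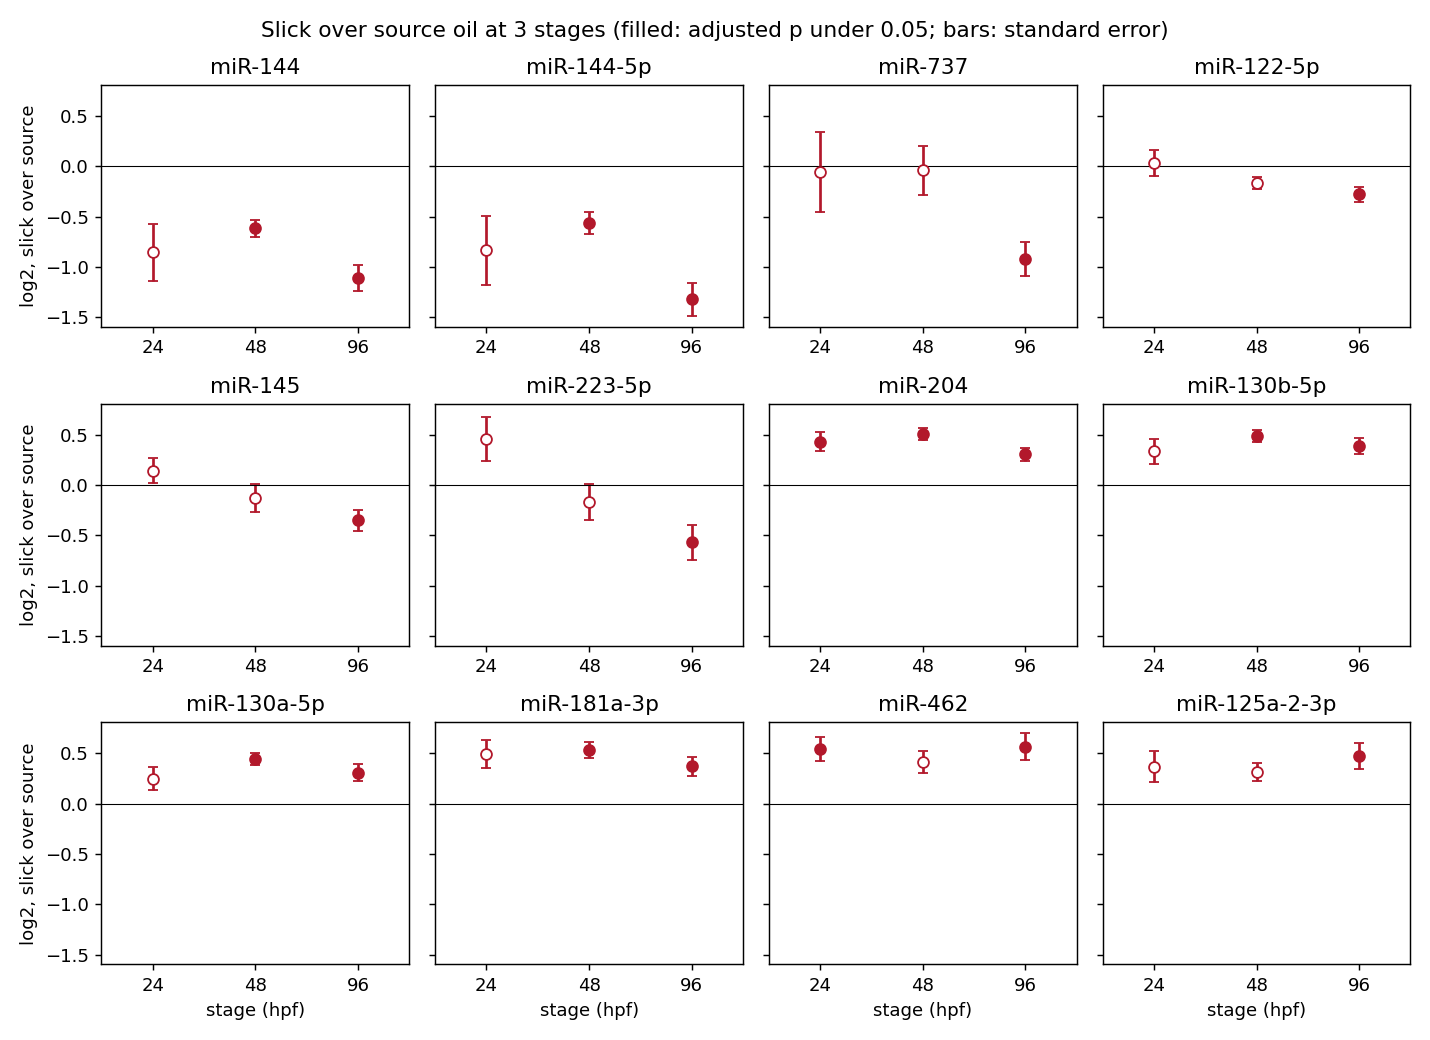
Log2 fold change of slick over source oil, with standard errors, at 24, 48 and 96 hpf for 12 miRNAs called at 96 hpf; filled points passed an adjusted p of 0.05 at that stage. As fitted in edgeR, miR-204 is above 0 and past the threshold at all 3 stages, and miR-737 departs from 0 at 96 hpf. The calls at 24 hpf were lost with DESeq2.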

How the data were processed

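Small RNA libraries of pooled mahi-mahi embryos or larvae were sequenced by the authors. Per the file headers and values, the deposited tables give whole-number, unscaled counts for each miRNA name. The sources used here name no aligner, miRNA reference or counting rule, so it is unknown whether a count is a read or a distinct sequence, and no genome coordinates or sequences were used. Per the file headers, the authors' tables of each oil against control at 96 hpf hold log2 fold changes and adjusted p-values. The submitters' processing notes name DESeq2, with no version or role.

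The slick and source tables of a stage were joined by name, keeping names with equal control counts, since 38 differed at 96 hpf by up to 21 counts. Counts were fitted in R 4.3.3 with edgeR 4.0.16 (filterByExpr with a min.count of 10, TMM, quasi-likelihood F test, two-sided, Benjamini-Hochberg over all names, threshold 0.05) on the 9 libraries of a stage, and log2 fold changes are slick over source. Changes with stage were tested in 1 fit of 27 libraries. DESeq2 1.42.0 and the other alternatives are described at the end. All 29 called names are named, with 29 tested names of a panel of 30 miRNAs, and 1 name of the panel was left out for unequal control counts. Opposite arms, miR-731 and miR-92a were chosen outside that rule. Depth was 86977 to 93055 counts per oil library at 96 hpf, and 3 libraries a group limit the precision. Same-numbered libraries were not treated as pairs. The comparison, panel and lists were chosen with earlier results of these data known.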

Additional observations from a re-analysis of the deposited data

How the results depend on the processing

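The 29 calls at 96 hpf became 4 with DESeq2, 18 with the spread set no smaller than counting error and 18 of 367 with near-identical names reduced to 1, both added after seeing the data, and 5 to 56 without single libraries. Other alternatives gave 20 to 31. The calls of miR-144, miR-144-5p, miR-737 and miR-737-5p held in each alternative that tested them, no called name changed direction in any, and the cause of the lost calls was not tested. Names with identical counts merged gave 29 calls. Names summed per miRNA number and arm gave 20 of 300, adding miR-142-3p, miR-499 and miR-92. Lost were the bare miR-462 (adjusted p = 0.0511), miR-122 (0.0646) and miR-145 (0.0874). The 5p sums of miR-214 (0.0874), miR-18 (0.0874), miR-223 (0.123) and miR-734 (0.141) were also lost, and the 3p sum of miR-125 was not called either. Names of near-identical counts enter these sums repeatedly, so an added call is not stronger evidence. The miR-142-3p sum had 84.4, 66.7 and 84.1 in slick libraries, where the name miR-142-3p alone had 28.3, 23.3 and 28.6. Replicate number as a replicate block gave 31 calls, all 29 among them. Deviations of same-numbered libraries correlated at 0.081, -0.194 and 0.083. The labels do not say what same-numbered libraries share, and deviations from means of 3 libraries cannot decide it. At 48 hpf the 35 calls became 22 with library size alone, 14 with DESeq2, 22 with the spread set no smaller than counting error and 20 to 39 without single libraries. At 24 hpf the 7 calls became 1 with DESeq2 size factors, 0 with DESeq2 (16 at an unadjusted p under 0.05), 0 with the spread set no smaller than counting error and 0 to 11 without single libraries. Some uncalled estimates near 0 changed sign. In the fit of 27 libraries miR-1 had -0.00065, miR-203 -0.016 and miR-430b -0.021. Without a filter miR-203 had -0.0059 and miR-430b -0.010, with near-identical names reduced they had -0.011 and -0.015, and miR-430b had -0.0022 with all names of both tables and -0.00098 with identical names merged. With a mean count of at least 50 miR-199-5p had 0.0016. Without single libraries miR-1 ranged from -0.016 to 0.066, miR-133a from -0.067 to 0.014, miR-124 from -0.11 to 0.011, miR-199-5p from -0.028 to 0.0062, miR-203 from -0.00073 to 0.025, miR-430b from -0.10 to 0.090 and miR-7641 from -0.44 to 0.26.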

Other observations

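The name miR-204-5p was left out of the joint fit because its control counts differ between the tables. In a fit of the 6 oil libraries alone it gave 0.29 ± 0.07 for slick over source (adjusted p = 0.00622). Names found in only 1 of the tables numbered 79 for slick and 49 for source oil, and none had a count above 3 in any library.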
